A study of Homo sapiens with 12 samples.

Results

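A set of 39 genes for protein folding was followed in MDA-MB-231-ERβ cells, 23 of them genes of the endoplasmic reticulum and its unfolded protein response and 16 of them heat shock genes. The members were taken by symbol from the 12451 gene entries of the count table, where each had 1 entry, and all 39 were among the 11303 entries tested. MDA-MB-231 is a human triple negative breast cancer line, and in the derivative used here full-length ERβ is switched on by doxycycline (dox). Cells of all 4 groups were grown in charcoal-stripped serum with dox and received, in 3 replicates each (12 libraries of poly(A) RNA), ethanol vehicle for 5 days, 1 nM 17β-estradiol (E2) for 5 days, vehicle for 5 days with 20 ng/ml TNFα for the final 3 h, or E2 for 5 days with the same TNFα (E2+ TNFα). The sample labels of the E2+ TNFα group leave dox out, and it was taken for them from the treatment protocol. Because ERβ came from a transgene and every group carried dox, the comparisons concern the ligand and the cytokine in cells with induced ERβ, and no library without dox was analysed here.

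Proteins that enter the secretory pathway are folded in the endoplasmic reticulum by HSPA5 (BiP), HSP90B1 (GRP94), the lectin chaperones calnexin and calreticulin, and the protein disulfide isomerases. When unfolded proteins accumulate there, the sensors ERN1 (IRE1α), ATF6 and PERK raise the transcription of these chaperones and of the machinery that sends misfolded proteins to the proteasome. ERN1 splices the mRNA of XBP1, and a gene-level count does not separate the spliced from the unspliced form. In the cytosol, the factor HSF1 drives the inducible HSP70 proteins, their HSP40 and HSP110 partners, HSP90 and small heat shock proteins when proteins denature.

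The labels were checked against marker genes. ESR2, which encodes ERβ, had 255 ± 26.7 (TNFα) to 472.5 ± 14.9 (vehicle) CPM (TMM-normalized counts scaled to a common library size, mean ± SD, n = 3). The mesenchymal marker VIM was at 1157 to 1550 CPM and CD44 at 755 to 1644 CPM in the group means, and the epithelial marker EPCAM was at 8.35 to 12.7 CPM. CDH1 (E-cadherin), another epithelial marker, had 3.15 CPM with vehicle and 1.90 with TNFα, but 41.1 with E2 and 40.7 with E2+ TNFα. GREB1, a target gene of estrogen receptors, was at 3.44 ± 0.162 and 4.12 ± 0.465 CPM in vehicle and TNFα and at 51.7 ± 8.84 and 52.8 ± 4.98 CPM in the groups with E2. TNF, a target of NFκB, had 36.7 ± 2.42 CPM with TNFα and 8.76 ± 1.14 with E2+ TNFα, against 0.317 ± 0.0531 with vehicle and 1.24 ± 0.530 with E2. ESR1 and PGR were not analysed here.

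Short promoter windows show which letters known from these pathways the members carry. RefSeq promoters (GRCh38.p14, 250 bases before to 50 after the start) were at hand for 37 members, with PDIA3 and HSF1 the others. Both strands were searched for the endoplasmic reticulum stress element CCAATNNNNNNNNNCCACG, its second form (ATTGG, 1 base of any kind and CCACG), the heat shock element as GAANNTTCNNGAA or TTCNNGAANNTTC, whose forms overlap in longer runs, and the palindromic estrogen response element GGTCANNNTGACC. The first element was in 7 of 22 endoplasmic reticulum promoters (31.8%; HSPA5, HSP90B1, CALR, CANX, ERO1B, CRELD2 and XBP1), against 0.0806% of all 27305 promoters of that length and 0.153% of the 9815 promoters of genes in the count table. The second form was in 3 of 22 (13.6%; HYOU1, SDF2L1 and HERPUD1), against 0.0549% and 0.112%. The heat shock element was in 2 of 15 heat shock promoters (13.3%; HSPA8 and DNAJA1), against 0.487% and 0.285%. The estrogen response element was in 0 of 22 and 0 of 15 of them, against 0.0659% and 0.0102%. A match is a description of letters only, and 20 of the 37 RefSeq starts lay within 50 bases of the start in the count table. Of those shown here HERPUD1 and HSPA8 lay 377 and 230 bases from it, and the largest distances were 20283 bases for CANX, which is among those counted with the first element, 5492 for PDIA6, 721 for HSPH1 and 659 for SYVN1. The 160 bases before the RefSeq start are shown for members that the results below turn on, 5′ to 3′ on the strand of the gene, with the matched elements in capitals. The windows are chr9:125241344-125241503 (minus strand) for HSPA5, chr12:103930250-103930409 (plus) for HSP90B1, chr22:28800570-28800729 (minus) for XBP1, chr16:56931982-56932141 (plus) for HERPUD1, chr11:123062137-123062296 (minus) for HSPA8 and chr6:31815383-31815542 (plus) for HSPA1A, which is shown as a heat shock promoter with no exact match to these letters.
HSPA5: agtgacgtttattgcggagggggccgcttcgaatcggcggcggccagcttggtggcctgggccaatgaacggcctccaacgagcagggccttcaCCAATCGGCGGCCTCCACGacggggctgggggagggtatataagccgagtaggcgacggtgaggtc
HSP90B1: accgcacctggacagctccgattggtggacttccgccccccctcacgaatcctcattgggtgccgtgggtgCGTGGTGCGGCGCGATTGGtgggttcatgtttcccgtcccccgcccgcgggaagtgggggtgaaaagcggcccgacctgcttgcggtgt
XBP1: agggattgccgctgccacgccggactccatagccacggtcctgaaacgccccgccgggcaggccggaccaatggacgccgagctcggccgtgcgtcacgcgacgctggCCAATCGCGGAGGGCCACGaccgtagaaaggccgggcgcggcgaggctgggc
HERPUD1: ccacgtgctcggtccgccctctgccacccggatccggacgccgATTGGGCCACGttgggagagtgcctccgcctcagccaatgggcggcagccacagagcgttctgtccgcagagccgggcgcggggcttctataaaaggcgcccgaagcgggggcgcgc
HSPA8: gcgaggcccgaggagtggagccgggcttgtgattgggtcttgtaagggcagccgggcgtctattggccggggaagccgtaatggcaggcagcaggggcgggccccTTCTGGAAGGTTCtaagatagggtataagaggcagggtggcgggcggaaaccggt
HSPA1A: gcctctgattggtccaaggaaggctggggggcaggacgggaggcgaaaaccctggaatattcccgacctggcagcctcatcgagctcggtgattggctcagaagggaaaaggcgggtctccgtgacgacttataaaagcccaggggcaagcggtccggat

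The 12 libraries held 7652016 to 39943664 reads in genes. The 3 vehicle libraries stood apart from the other 9. Spearman correlations across all genes tested were 0.973 to 0.998 within groups and 0.928 to 0.989 between the 3 treated groups, but 0.706 to 0.863 between vehicle and treated libraries. Changes relative to vehicle followed the GC content of the exons. In E2 relative to vehicle, the lowest of 5 equal bins of genes by GC (32.5 to 42.0%) had a median log2 fold change of −1.91 and the highest bin (59.0 to 76.6%) one of 0.76. Between E2+ TNFα and TNFα these medians were 0.28 and −0.08. A library batch and the vehicle condition cannot be told apart in this design. For this reason the comparisons without vehicle are described first, and the changes of members relative to vehicle are given beside their values after the trends of every library with GC content and gene length had been removed together.

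**Figure D1:**
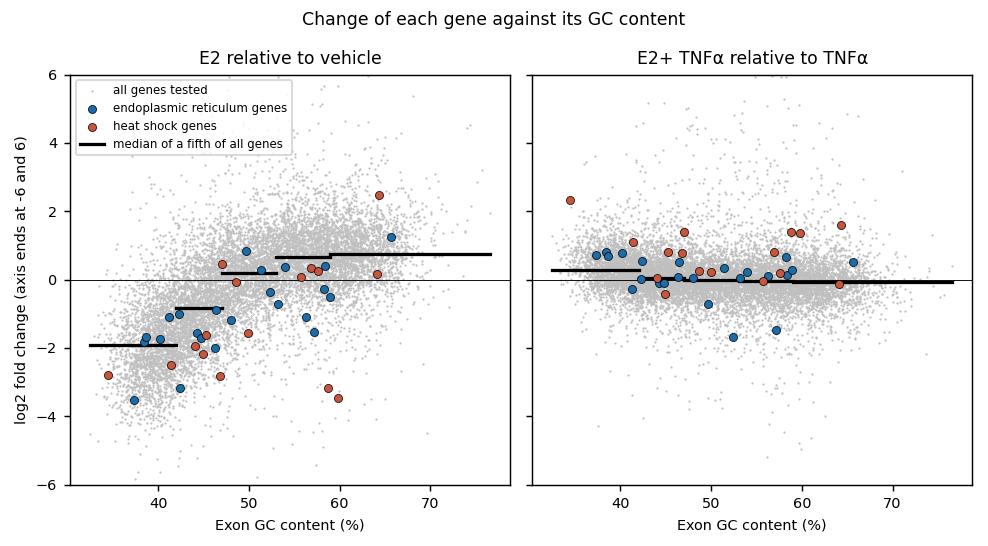
Log2 fold change (vertical axis) of every gene tested (grey) and of the endoplasmic reticulum (blue) and heat shock (red) members against exon GC content (percent), for E2 relative to vehicle (left) and E2+ TNFα relative to TNFα (right). Black bars are the medians of 5 equal bins of all genes, which run from −1.91 to 0.76 on the left and from 0.28 to −0.08 on the right. HSPA1A and HSPA1B lie far below the GC-rich genes on the left and above them on the right.

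The members spanned a wide range of levels per gene length. In vehicle, HSPA8 was at 1133, HSPA5 at 1074, HSP90AB1 at 967 and CALR at 756 RPKM (CPM per kilobase of exon, group means), whereas ERO1B was at 2.36 and DNAJB4 at 3.62 RPKM. In E2+ TNFα, HSPA8 at 1415, HSPB1 at 1055 and CALR at 912 RPKM were highest. ERO1B and DNAJB4 reached 1 RPKM in the vehicle libraries only, so they entered the test through the group where they are high and had to differ from vehicle. ERN1 reached 1 RPKM in 11 libraries and the other 36 members in all 12. Summed over the 16 heat shock members, 1.23 to 1.32% of the normalized reads fell in these genes in vehicle, 0.821 to 1.05% in E2, 0.468 to 0.611% in TNFα and 0.871 to 0.912% in E2+ TNFα. The TNFα libraries thus held the lowest heat shock sums, with no overlap with any other group. These sums weigh the genes with many reads most. HSPA8, which has copies elsewhere in the genome, had group means of 1338 CPM in TNFα and 3509 in E2+ TNFα. The sums were 4683 to 6111 and 8706 to 9120 CPM in these groups. The 23 endoplasmic reticulum members took 1.33 to 1.40% in vehicle, 0.703 to 0.814% in E2, 0.769 to 0.776% in TNFα and 0.722 to 0.898% in E2+ TNFα, and the 3 treated groups overlapped. RNA of bulk cultures cannot tell a change in every cell from a change in the share of cells that express a gene.

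**Figure D2:**
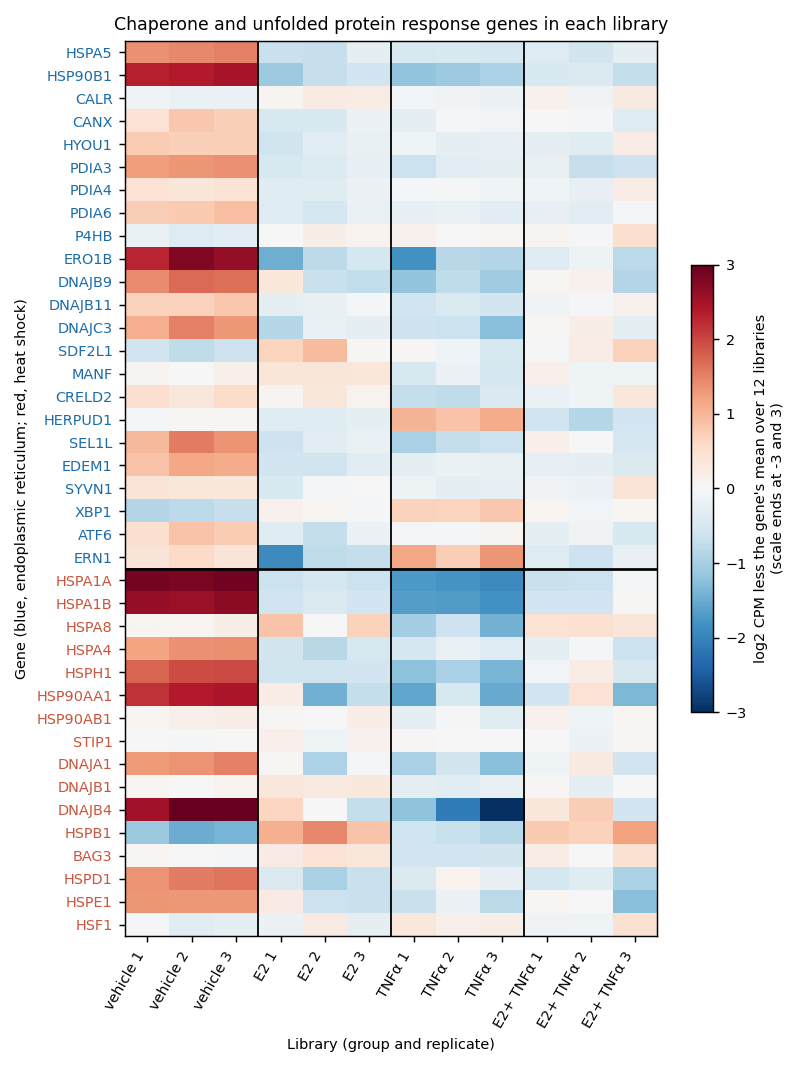
Log2 CPM of each member (rows, blue names for endoplasmic reticulum and red names for heat shock genes) less its mean over the 12 libraries (columns, by group and replicate), with red above and blue below that mean. Most members were highest in the 3 vehicle libraries, HERPUD1, ERN1 and XBP1 were highest in TNFα, and HSPB1 was highest in both groups with E2.

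The effect of E2 in cells that all received TNFα was examined first, since vehicle is not among the groups compared. The fit, its estimate of spread and the filter still drew on all 12 libraries. Relative to TNFα, cells with E2+ TNFα had more mRNA of 4 of 5 HSP70 and HSP110 genes and of HSPB1, whereas the stress regulators ERN1 and XBP1 and the degradation gene HERPUD1 were lower. Genes were called significantly regulated at a log2 fold change of 1.5 or more in size, p below 0.05 and an adjusted p of at most 0.1 (edgeR, Benjamini-Hochberg), and 5.56% of all genes tested passed (3.55% higher and 2.01% lower). Of the members, 2 heat shock genes (HSPB1 and DNAJB4) were higher and 1 endoplasmic reticulum gene (HERPUD1) was lower. DNAJB4 and ERO1B reached 1 RPKM in vehicle only but stay in the counts here, and at any size both are among the higher genes. With at least 10 counts required in every library, 1 heat shock gene was higher, where 495 of 10696 genes were called. At an adjusted p of at most 0.1 with no threshold of size, which 45.3% of all genes passed (24.4% higher and 21.0% lower), 8 of 16 heat shock members were higher and 1 was lower, and 9 of 23 endoplasmic reticulum members were higher and 3 lower. After GC and length trends were taken out, these counts were 10 and 1 for heat shock members and 9 and 5 for endoplasmic reticulum members, beside 26.7% higher and 34.2% lower of all genes. The median log2 fold change was 0.79 for heat shock members, 0.13 for endoplasmic reticulum members and 0.04 for all genes tested. The endoplasmic reticulum median less the heat shock median was −0.66, and it was −0.20 without E2+ TNFα replicate 2. Of the 9 heat shock members called at any size, HSPA1A, HSPA1B, HSPA8, HSPB1, DNAJA1 and HSPD1 have a near-identical copy elsewhere in the genome, so that their read counts are uncertain, and DNAJB4, HSPH1 and BAG3 are the 3 without one.

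**Figure D3:**
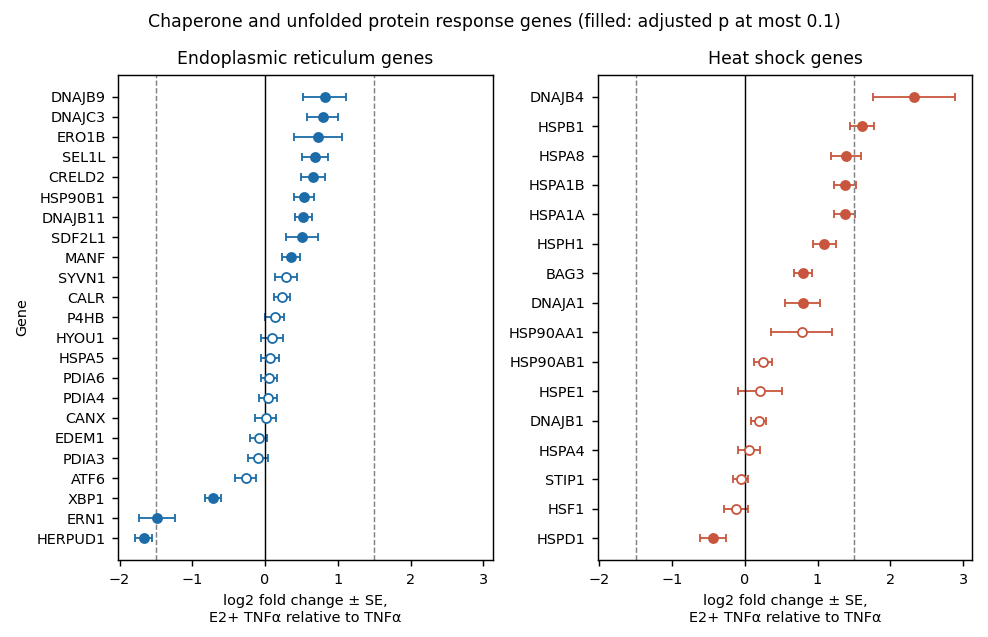
Log2 fold change ± SE (horizontal axis) of each member (vertical axis) in E2+ TNFα relative to TNFα, with endoplasmic reticulum genes on the left and heat shock genes on the right. Filled points have an adjusted p of at most 0.1 and dashed lines mark 1.5 and −1.5. HERPUD1 lies at −1.67 on the left, and DNAJB4 at 2.33 and HSPB1 at 1.61 on the right.

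Among the HSP70 and HSP110 genes, HSPA1A and HSPA1B, neighbours in the major histocompatibility complex that encode the same stress-inducible HSP70, moved together. HSPA1A (chr6:31815514-31817942, plus strand, hg38) was at 1538, 1490 and 1553 CPM in vehicle, 135, 146 and 135 in E2, 63.3, 61.8 and 55.9 in TNFα and 133, 135 and 201 in E2+ TNFα. HSPA1B (chr6:31827735-31830254, plus) was at 1750, 1701 and 1795 CPM in vehicle, 185, 208 and 190.5 in E2, 89.9, 86.1 and 79.5 in TNFα and 188, 189 and 287 in E2+ TNFα. For both genes every TNFα library was below every other library, and the vehicle libraries were above all others. From TNFα to E2+ TNFα, HSPA1A rose by 1.37 ± 0.14 (log2 fold change ± SE) and HSPA1B by 1.38 ± 0.15, with adjusted p = 2.7e-06 and 3.5e-06 (edgeR). The exons of the pair match each other at 98.5% identity over 2144 bases, so that reads may have been split between them or dropped. Summed to 1 entry, HSPA1A and HSPA1B together changed by 1.38.

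HSPA8 (chr11:123057492-123062366, minus) encodes the constitutive HSP70 of the cytosol, and its window above holds a heat shock element. It was at 2725, 2749 and 2954 CPM in vehicle, 4772, 2596 and 4274 in E2, 1309, 1721 and 984 in TNFα and 3538, 3617 and 3371 in E2+ TNFα. The TNFα libraries were the lowest, and the E2 libraries had a wide spread that overlapped vehicle and E2+ TNFα. HSPA8 was higher in E2+ TNFα than in TNFα by 1.39 ± 0.21 (adjusted p = 9.8e-05, edgeR). HSPH1 (chr13:31134974-31163109, minus), the HSP110 nucleotide exchange factor of HSP70, was at 281, 327.5 and 333.5 CPM in vehicle, 55.5, 55.2 and 56.0 in E2, 35.9, 42.97 and 32.0 in TNFα and 79.25, 97.9 and 59.7 in E2+ TNFα. No group overlapped another, with TNFα lowest and E2+ TNFα highest of the treated groups, and the rise from TNFα was 1.09 ± 0.16 (adjusted p = 8.3e-05, edgeR). HSPA4, another member of the HSP110 class, changed by 0.06 ± 0.15 with an adjusted p of 0.795 (edgeR), and its libraries overlapped.

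The small heat shock protein HSPB1 (HSP27; chr7:76302558-76304297, plus) was at 231, 179.6 and 192 CPM in vehicle, 1052, 1353 and 912 in E2, 331, 317.5 and 282 in TNFα and 863, 812 and 1166 in E2+ TNFα. Every library with E2 was above every library without it. HSPB1 was 1.61 ± 0.17 higher in E2+ TNFα than in TNFα (adjusted p = 2.7e-06, edgeR), a value that fell to 1.43, under the threshold of size, without E2+ TNFα replicate 3. BAG3, a co-chaperone that links HSP70 to small heat shock proteins, was 0.80 ± 0.12 higher (adjusted p = 9.7e-05, edgeR) with no overlap between the groups.

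Of the 3 HSP40 genes, whose products stimulate the ATPase of HSP70, DNAJB4 and DNAJA1 were higher. DNAJB4 (chr1:77979217-78018721, plus) had 25, 13 and 0 reads in the TNFα libraries and 39, 93 and 43 reads in E2+ TNFα, and the change of 2.33 ± 0.57 (adjusted p = 0.0047, edgeR) rests on these few reads. DNAJA1 was 0.79 ± 0.25 higher (adjusted p = 0.0195, edgeR), although its libraries overlapped. DNAJB1 (chr19:14514764-14529711, minus) was at 242, 232 and 249.4 CPM in vehicle, 295, 280.5 and 291 in E2, 194, 185 and 199.8 in TNFα and 238, 193 and 231 in E2+ TNFα. The E2 libraries were the highest and the TNFα libraries the lowest save for 1 overlap with E2+ TNFα, and the change from TNFα of 0.19 ± 0.10 did not pass (adjusted p = 0.169, edgeR).

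Of the cytosolic HSP90 genes and the mitochondrial pair, 0 passed as higher. HSP90AA1, the inducible cytosolic HSP90, had 87.0 to 184 CPM in TNFα and 101 to 347 CPM in E2+ TNFα, and its change of 0.78 ± 0.42 did not pass (adjusted p = 0.158, edgeR). The constitutive HSP90AB1 changed by 0.25 ± 0.12 and the HSP70 to HSP90 adaptor STIP1 by −0.06 ± 0.11, and neither passed, although HSP90AB1 (0.20) passed with the trends removed. The mitochondrial chaperonin HSPD1 (HSP60) was the heat shock member that was lower, by 0.44 ± 0.17 on the log2 scale with an adjusted p of 0.063 (edgeR) and overlapping libraries, and its partner HSPE1, which overlaps HSPD1 on the opposite strand over 29.0% of its exon length, had 0.21 ± 0.31. HSF1 had −0.12 ± 0.17, and its adjusted p was 0.615 (edgeR).

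On the side of the endoplasmic reticulum, HERPUD1 (chr16:56931765-56943881, plus), a membrane protein of the degradation machinery and a target of the unfolded protein response, was at 141, 149.6 and 151 CPM in vehicle, 112.5, 114 and 119 in E2, 296.5, 261 and 313.5 in TNFα and 95.7, 79.7 and 98.1 in E2+ TNFα. No group overlapped another, with TNFα highest and E2+ TNFα lowest. HERPUD1 was 1.67 ± 0.11 lower in E2+ TNFα than in TNFα (log2, adjusted p = 2.5e-08, edgeR). It was −1.70 after GC and length trends were taken out.

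XBP1 (chr22:28794560-28800572, minus), the factor that ERN1 activates by splicing, was at 94.8, 100 and 108 CPM in vehicle, 189, 182 and 169.5 in E2, 279, 275 and 305 in TNFα and 179.9, 163 and 179.7 in E2+ TNFα. The vehicle libraries were lowest, the TNFα libraries highest, and both groups with E2 lay between them and overlapped each other. XBP1 fell by 0.72 ± 0.10 from TNFα to E2+ TNFα on the log2 scale (adjusted p = 6.5e-05, edgeR). ERN1 (chr17:64043030-64130142, minus) was at 15.8, 18.1 and 16.0 CPM in vehicle, 3.22, 7.18 and 7.415 in E2, 27.2, 20.2 and 30.7 in TNFα and 7.94 to 10.49 in E2+ TNFα. The order of its groups was TNFα, vehicle, E2+ TNFα and E2, with no overlap, and the fall from TNFα was 1.49 ± 0.25 (adjusted p = 0.000237, edgeR), just under the threshold of size. ATF6, the third regulator listed, had −0.27 ± 0.15 and did not pass (adjusted p = 0.17, edgeR), although its groups did not overlap, and with the trends removed it had −0.46 and passed (adjusted p = 0.000351, edgeR).

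The 4 co-chaperones of the endoplasmic reticulum were all higher at an adjusted p of at most 0.1, by less than 1.0 on the log2 scale. DNAJB9 (ERdj4; chr7:108569745-108574850, plus), a partner of HSPA5, was at 30.5, 37.1 and 36.0 CPM in vehicle, 14.3, 7.18 and 6.78 in E2, 5.04, 6.75 and 5.41 in TNFα and 11.9, 12.4 and 6.17 in E2+ TNFα. Vehicle was highest, and the 3 treated groups overlapped in part. The change of DNAJB9 from TNFα was 0.82 ± 0.29 (adjusted p = 0.0384, edgeR), and it no longer passed when TNFα replicate 1 (0.73) or 3 (0.78) or E2+ TNFα replicate 1 (0.67) or 2 (0.63) was left out. DNAJC3 was 0.79 ± 0.22 higher (adjusted p = 0.0101, edgeR) without overlap, DNAJB11 had 0.53 ± 0.12 and SDF2L1, with overlapping libraries, 0.50 ± 0.22.

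Among the secreted stress factors, CRELD2 rose by 0.66 ± 0.17 and MANF by 0.35 ± 0.12 with no overlap. SEL1L, the adaptor of the ubiquitin ligase SYVN1 (HRD1), rose by 0.69 ± 0.18 (adjusted p = 0.0086, edgeR), whereas SYVN1 itself had 0.29 ± 0.15 and the mannosidase-like EDEM1 had −0.09 ± 0.12. With the trends removed SYVN1 (0.29) and EDEM1 (−0.18) passed, as did CALR (0.20), DNAJB1 (0.20) and HSP90AB1 (0.20), and MANF (0.16) and ERO1B (0.38) did not. ERO1B, an oxidase for disulfide formation, had 0.72 ± 0.33 (adjusted p = 0.0993, edgeR) on 16 to 50 reads a library.

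Apart from HSP90B1 and the oxidase ERO1B, the chaperones and oxidoreductases themselves differed little between TNFα and E2+ TNFα. HSPA5 (chr9:125234848-125241387, minus) was at 4051, 4266 and 4473 CPM in vehicle, 977, 964 and 1267 in E2, 1110, 1144 and 1102 in TNFα and 1202, 1056 and 1267 in E2+ TNFα. Vehicle was far above the 3 treated groups, which overlapped, and the change from TNFα was 0.07 ± 0.12 (adjusted p = 0.689, edgeR). HSP90B1 (chr12:103930334-103947930, plus) was at 1146, 1182 and 1253 CPM in vehicle, 106, 141 and 152 in E2, 98.8, 107 and 117 in TNFα and 163.5, 167 and 137 in E2+ TNFα. Its E2+ TNFα libraries were all above the TNFα libraries, by 0.54 ± 0.14 (adjusted p = 0.0063, edgeR). CALR, CANX, HYOU1, PDIA3, PDIA4, PDIA6 and P4HB had changes between −0.09 and 0.23, none of which passed. Of the 10 endoplasmic reticulum members whose promoter window held a stress element of either form, 4 were higher, 2 (HERPUD1 and XBP1) were lower and 4 did not pass, beside 9 higher and 3 lower of all 23 and 24.4% higher and 21.0% lower of all genes. Both heat shock members with a heat shock element, HSPA8 and DNAJA1, were higher, beside 8 of all 16, and nothing is read from these small counts.

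**Figure D4:**
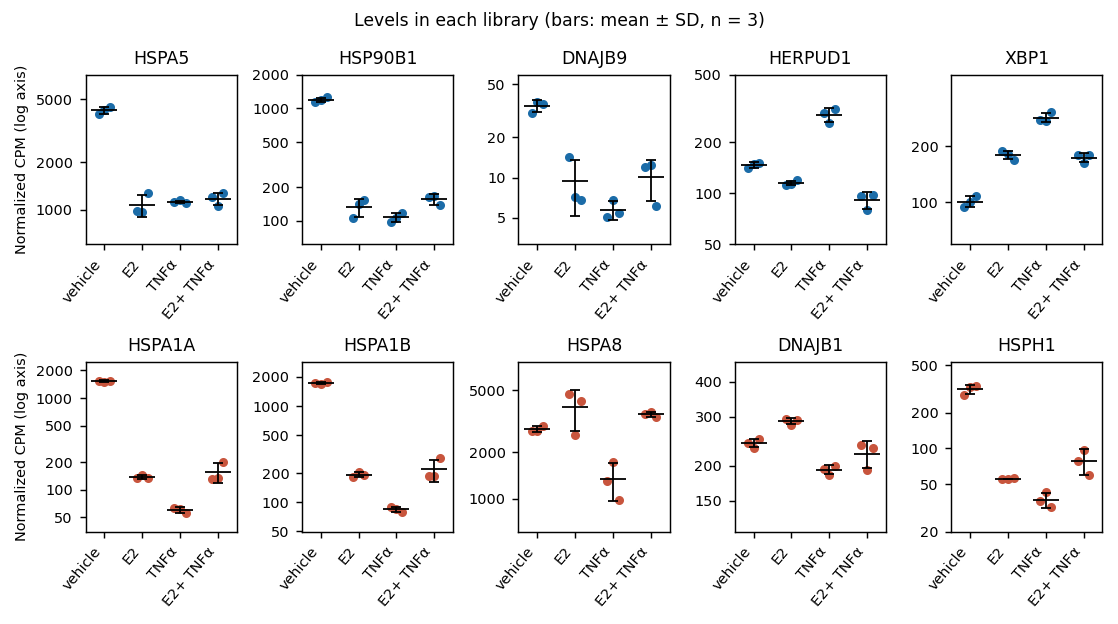
TMM-normalized CPM (log axis) of 10 members in each library (points) with the mean ± SD of each group (n = 3), endoplasmic reticulum genes in the upper row and heat shock genes in the lower. HERPUD1 and XBP1 are highest in TNFα, and HSPA1A, HSPA1B, HSPA8 and HSPH1 are lowest there, while HSPA5 and HSP90B1 separate vehicle from the 3 treated groups.

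The effect of TNFα was also compared in cells that all received E2. Between E2+ TNFα and E2, 0 of 39 members were significantly regulated by edgeR or by DESeq2, and 6 had an unadjusted p below 0.05, beside 19.4% of all genes. Of all genes 0.407% passed the thresholds of the study (0.389% higher and 0.0177% lower). At an adjusted p of at most 0.1 with no threshold of size, which 6.0% of all genes passed (2.65% higher and 3.34% lower), MANF had −0.40 ± 0.12 (adjusted p = 0.0969) and DNAJB1 −0.39 ± 0.11 (adjusted p = 0.0634), both by edgeR and both without overlap. Each call was lost with some single libraries left out, that of DNAJB1 without vehicle replicate 3 (−0.37), E2 replicate 1 (−0.37) or E2+ TNFα replicate 2 (−0.30) and that of MANF in 9 of 12 such fits, with values of −0.41 to −0.35. These shares are near those of all genes. After trend removal, 3 members of each side were higher and 1 of each side lower at any size, beside 4.61% higher and 10.7% lower of all genes. The medians were 0.15 for endoplasmic reticulum members, 0.09 for heat shock members and 0.01 for all genes. HERPUD1, XBP1 and HSPA1A, which had moved relative to TNFα, had −0.34 ± 0.11, −0.05 ± 0.10 and 0.17 ± 0.14 here, and the comparisons share the E2+ TNFα libraries.

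The comparisons with vehicle come next, and in them ERO1B and DNAJB4 are set aside from the counts, since both were tested only because they were high in vehicle. After each log2 fold change ± SE from edgeR, a second value in the same parenthesis gives the change with the trends of GC content and length removed together. In E2 relative to vehicle, where 30.5% of all genes were significantly regulated (9.87% higher and 20.6% lower), 8 of the other 22 endoplasmic reticulum members were lower and 0 higher, and 8 of the other 15 heat shock members were lower and 1 higher. Their medians were −1.06 and −1.57, against −0.02 for all genes tested, and −0.51 and −0.78, against 0.07, once the trends were taken out. A fit with 1 factor of unwanted variation, estimated from 20 housekeeping genes, reversed the order of both sides, with medians of −1.10 for all 23 endoplasmic reticulum and −0.22 for all 16 heat shock members, against −0.07 for all genes.

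The heat shock members that were lower in E2 were HSPA1A (−3.46 ± 0.16, −4.26), HSPA1B (−3.17 ± 0.16, −3.94), HSP90AA1 (−2.81 ± 0.45, −2.48), HSPH1 (−2.50 ± 0.17, −0.78), HSPD1 (−2.17 ± 0.18, −1.61), HSPA4 (−1.93 ± 0.16, −1.13), DNAJA1 (−1.63 ± 0.25, −1.26) and HSPE1 (−1.57 ± 0.31, −1.84). HSPB1 was higher (2.46 ± 0.17, 1.33). The endoplasmic reticulum members that were lower were HSP90B1 (−3.17 ± 0.15, −2.05), HSPA5 (−1.995 ± 0.13, −1.57), DNAJB9 (−1.84 ± 0.29, −0.17), DNAJC3 (−1.75 ± 0.22, 0.12), PDIA3 (−1.70 ± 0.14, −1.07), SEL1L (−1.68 ± 0.19, 0.68), EDEM1 (−1.55 ± 0.12, −0.35) and ERN1 (−1.53 ± 0.27, −2.10). Adjusted p values were at most 0.000285 (edgeR). ERO1B had −3.54 ± 0.34 and −1.29, and DNAJB4 −2.79 ± 0.51 and −0.31. With the trends removed, 3 of these 8 endoplasmic reticulum calls and 5 of these 8 heat shock calls passed the thresholds, HYOU1 (−1.51) was added, and HSPB1 did not pass, while 7.62% of all genes were higher and 6.37% lower. With the unwanted factor, HSP90AA1 (1.38), DNAJA1 (0.75), HSPE1 (0.56) and DNAJB9 (0.21) turned positive. Of all members 5 endoplasmic reticulum and 2 heat shock genes were then lower, beside 7.14% of all genes. Without E2 replicate 2 the fits of DNAJA1 (−1.35), EDEM1 (−1.46) and HSPE1 (−1.39) fell under the threshold of size, and so did ERN1 without E2 replicate 1 (−1.24) and HSPE1 without E2 replicate 3 (−1.44).

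In TNFα relative to vehicle, 26.7% of all genes were significantly regulated (6.64% higher and 20.0% lower). Of the 22 endoplasmic reticulum members 6 were lower and 1 higher, and of the 15 heat shock members 8 were lower and 0 higher. The medians were −0.87 and −1.67, against 0.01 for all genes, and −0.64 and −1.05, against 0.07, with the trends removed. The heat shock members that were lower were HSPA1A (−4.66 ± 0.16, −5.38), HSPA1B (−4.36 ± 0.17, −5.05), HSP90AA1 (−3.42 ± 0.46, −3.07), HSPH1 (−3.08 ± 0.17, −1.497), DNAJA1 (−2.28 ± 0.25, −1.74), HSPE1 (−1.83 ± 0.31, −1.74), HSPA4 (−1.68 ± 0.15, −0.85) and HSPD1 (−1.67 ± 0.18, −1.05). The endoplasmic reticulum members that were lower were HSP90B1 (−3.47 ± 0.15, −2.37), DNAJB9 (−2.59 ± 0.29, −0.80), DNAJC3 (−2.12 ± 0.22, −0.30), SEL1L (−2.08 ± 0.19, 0.13), HSPA5 (−1.93 ± 0.13, −1.48) and PDIA3 (−1.72 ± 0.14, −1.06). Adjusted p values were at most 6.36e-05 (edgeR). DNAJB4 had −5.00 ± 0.55 and −2.36, and ERO1B −3.77 ± 0.31 and −1.51. After trend removal, 1 of these 6 endoplasmic reticulum calls (HSP90B1) and 5 of these 8 heat shock calls passed, and CRELD2 (−1.09 ± 0.17, −1.75) was added, while 5.05% of all genes were higher and 5.42% lower. With the unwanted factor, 8 endoplasmic reticulum and 4 heat shock genes of all members were lower, beside 6.58% of all genes, and the medians were −0.91 and −0.54.

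XBP1 rose by 1.503 ± 0.10 with TNFα (adjusted p = 2.0e-08, edgeR), at the edge of the threshold of size, and fell under it in 7 of the 12 fits with 1 library left out (1.36 to 1.48, among them each fit without 1 vehicle library). HERPUD1 had 0.98 ± 0.11 and ERN1 0.64 ± 0.24, both under the threshold. With the trends removed, XBP1 had 1.41, also under the threshold, HERPUD1 0.60 and ERN1 0.10.

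In E2+ TNFα relative to vehicle, where 25.1% of all genes were significantly regulated (7.52% higher and 17.6% lower), 4 of the 22 endoplasmic reticulum members were lower and 0 higher, and 7 of the 15 heat shock members were lower and 1 higher. The medians were −0.82 and −1.49, against −0.03 for all genes, and −0.42 and −0.72, against 0.01, with the trends removed. HSPA1A (−3.29 ± 0.15, −4.01), HSPA1B (−2.98 ± 0.16, −3.67), HSP90AA1 (−2.64 ± 0.44, −2.38), HSPD1 (−2.10 ± 0.18, −1.59), HSPH1 (−1.99 ± 0.16, −0.60), HSPA4 (−1.62 ± 0.15, −0.94) and HSPE1 (−1.62 ± 0.30, −1.79) were lower, and HSPB1 (2.24 ± 0.17, 1.17) was higher. HSP90B1 (−2.94 ± 0.15, −1.99), HSPA5 (−1.86 ± 0.13, −1.51), PDIA3 (−1.81 ± 0.14, −1.26) and DNAJB9 (−1.77 ± 0.28, −0.30) were lower on the side of the endoplasmic reticulum. Adjusted p values were at most 0.000196 (edgeR). ERO1B had −3.04 ± 0.30 and −1.13, and DNAJB4 −2.67 ± 0.47 and −0.59. Trend removal left 2 of these 4 endoplasmic reticulum calls and 5 of these 7 heat shock calls past the thresholds, and HSPB1 did not pass, while 5.88% of all genes were higher and 5.02% lower. With the unwanted factor, 5 endoplasmic reticulum and 2 heat shock genes of all members were lower, beside 6.28% of all genes, the medians were −0.94 and −0.37, and HSP90AA1 (0.45) turned positive. Without E2+ TNFα replicate 3, DNAJB9 (−1.5), HSPA4 (−1.47) and HSPE1 (−1.29) were no longer called. When vehicle replicate 1 was left out, where ERO1B was not tested, 7 endoplasmic reticulum members were lower in place of 4.

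Other members did not reach the threshold of size relative to vehicle before the trends were removed. CALR, the lectin chaperone calreticulin, was within 0.35 of vehicle on the log2 scale in all 3 comparisons, P4HB within 0.50, HSP90AB1 within 0.37, STIP1 within 0.08 and DNAJB1 within 0.32, while MANF had values from −0.47 to 0.28 and HSF1 from 0.16 to 0.43. With the trends removed CALR had −0.45 to −0.25, P4HB −0.35 to −0.16, HSP90AB1 −0.35 to −0.12, STIP1 −0.57 to −0.52, DNAJB1 −0.92 to −0.39, MANF −0.55 to −0.12 and HSF1 −0.74 to −0.47. SDF2L1, with the highest GC content of the 39 (65.7%), had 1.25 ± 0.22 (E2), 0.48 ± 0.22 (TNFα) and 0.98 ± 0.22 (E2+ TNFα), and 0.04, −0.74 and −0.19 with the trends removed. The sign of CANX turned with trend removal in each of these comparisons, from −1.02, −0.80 and −0.79 to 0.44, 0.56 and 0.41. That of ATF6 turned as well, from −1.10, −0.72 and −0.99 to 0.75, 0.97 and 0.51. BAG3 had 0.34, −0.57 and 0.24, and −0.38, −1.18 and −0.38 with the trends removed. HSPA8 had 0.47 ± 0.21, −1.07 ± 0.21 and 0.32 ± 0.21, and 0.62, −0.83 and 0.50 with the trends removed. PDIA4, PDIA6, HYOU1, DNAJB11, CRELD2 and SYVN1 had values between −1.26 and −0.29, and between −1.75 and −0.45 with the trends removed.

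Whether E2 changed the response to TNFα was tested by the interaction, the effect of TNFα with E2 less its effect without E2. It uses the vehicle libraries, and 31.8% of all genes passed the thresholds of the study (22.5% positive and 9.29% negative). Of the members, 7 endoplasmic reticulum genes were positive and 1, XBP1 (−1.55 ± 0.15), was negative, and 9 heat shock genes were positive, with ERO1B on the former side and DNAJB4 on the latter tested only through vehicle. HSPA1A had 4.83 ± 0.21, HSPA1B 4.55 ± 0.22, HSPH1 3.59 ± 0.23 and HSP90B1 3.70 ± 0.20, with adjusted p values of at most 3.8e-08 (edgeR). After trend removal these were 5.64, 5.32, 1.67 and 2.43, and that of XBP1 was −1.36, under the threshold of size. Of the members, 5 endoplasmic reticulum and 7 heat shock genes were then positive, beside 6.87% positive and 6.98% negative of all genes. Without ERO1B and DNAJB4 these were 4 and 6. The endoplasmic reticulum calls were not all the same genes. Positive co-chaperones went from 2 to 0, degradation genes from 1 to 0 and oxidoreductases from 2 to 1. Chaperones went from 2 to 3 and secreted factors from 0 to 1. With the unwanted factor, 8 endoplasmic reticulum and 3 heat shock genes were positive. Of all 11303 genes tested 1300 were then called, 59.0% of them positive. The medians were 1.18 and 0.35 in place of 1.03 and 1.76, and HSP90AA1 (−0.90), HSPE1 (−0.49) and DNAJA1 (−0.0808) turned negative. XBP1 was also under the threshold of size without any 1 vehicle library (−1.39, −1.43 and −1.49) and without E2 replicate 1 (−1.49), and PDIA3 (1.61 ± 0.20) without E2 replicate 2 (1.49), TNFα replicate 1 (1.496) or E2+ TNFα replicate 1 (1.47). HERPUD1 had −1.32 ± 0.16 (adjusted p = 5.4e-06, edgeR), under the threshold of size.

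Other genes of the same pathways were described from 7 companion lists. In E2+ TNFα relative to TNFα, 24.4% of all genes were higher and 21.0% lower at an adjusted p of at most 0.1. These shares stand beside the counts of every list that follow for that comparison. At an adjusted p of at most 0.1 in E2+ TNFα relative to TNFα, the PERK branch and membrane-bound factors had 2 higher and 8 lower of 14 genes, with a median of −0.49. Its largest changes were in TRIB3 (−3.01 ± 0.22), DDIT3 (CHOP; −2.50 ± 0.18) and ATF3 (−2.12 ± 0.15), targets of the PERK to ATF4 pathway, with adjusted p values of 4.2e-08, 4.5e-08 and 4.7e-08 (edgeR). DDIT3 had 48.9 ± 3.36 CPM with vehicle and 38.8 ± 5.66 with TNFα, but 7.16 ± 1.26 with E2 and 6.92 ± 1.497 with E2+ TNFα. TRIB3 had 522 ± 131 CPM with TNFα, against 119 ± 9.84 with vehicle, 91.1 ± 28.3 with E2 and 64.7 ± 7.98 with E2+ TNFα. DDIT3 thus separated the groups by E2, and TRIB3 stood out in TNFα.

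The other degradation genes had 10 higher and 0 lower of 16 tested, with a median of 0.40, led by UBE2G2 (1.14 ± 0.11), EDEM3 (0.89 ± 0.26) and OS9 (0.66 ± 0.14). The translocon, signal peptidase and oligosaccharyl transferase had 7 higher and 1 lower of 21 (median 0.04), with OSTC (1.01 ± 0.32), SEC62 (0.78 ± 0.21) and SPCS3 (0.66 ± 0.22) foremost, but after removal of the trends 6 were higher and 7 lower and the median was −0.13. The other folding genes of the endoplasmic reticulum had 5 higher and 5 lower of 28 (median 0.06). Their largest values were in FKBP14 (0.91 ± 0.20), TMX1 (0.78 ± 0.30) and DNAJC10 (0.67 ± 0.22). After trend removal this list had 6 higher and 8 lower (median −0.05). Beside both lists, 26.7% of all genes were higher and 34.2% lower with the trends removed.

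Of the other cytosolic heat shock genes, 9 were higher and 5 lower of 29 tested (median 0.26), and 11 higher and 8 lower (median 0.0847) after trend removal. HSPA2 (3.55 ± 0.27), HSPB8 (3.44 ± 0.15) and HSPA6 (1.87 ± 0.20) had the largest changes, with adjusted p values of 9.1e-08, 1.5e-10 and 2.7e-06 (edgeR). HSPB8, a small heat shock protein that binds BAG3, had 395 ± 34.7 CPM with E2 and 365 ± 38.5 with E2+ TNFα, against 69.1 ± 2.57 with vehicle and 33.7 ± 6.53 with TNFα. HSPA6, an inducible HSP70, had 64.8 ± 2.96 CPM with vehicle, 7.58 ± 1.96 with E2, 7.20 ± 1.10 with E2+ TNFα and 1.97 ± 0.161 with TNFα, so that vehicle was highest and TNFα lowest, as for HSPA1A and HSPA1B. The cytosolic chaperonin CCT and prefoldin had 1 higher and 2 lower of 14 (median −0.04), namely PFDN5 (0.55 ± 0.13), PFDN2 (−0.67 ± 0.13) and CCT5 (−0.30 ± 0.13). The other mitochondrial chaperones and proteases had 0 higher and 7 lower of 12 (median −0.29), led by GRPEL2 (−1.37 ± 0.22), LONP1 (−1.08 ± 0.16) and TRAP1 (−1.03 ± 0.13). After trend removal, 2 were higher and 10 lower in the PERK list and 9 and 1 in the degradation list. CCT and prefoldin then had 2 and 5 and the mitochondrial list 1 and 8. Beside these lists, 26.7% of all genes were higher and 34.2% lower after trend removal.

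**Figure D5:**
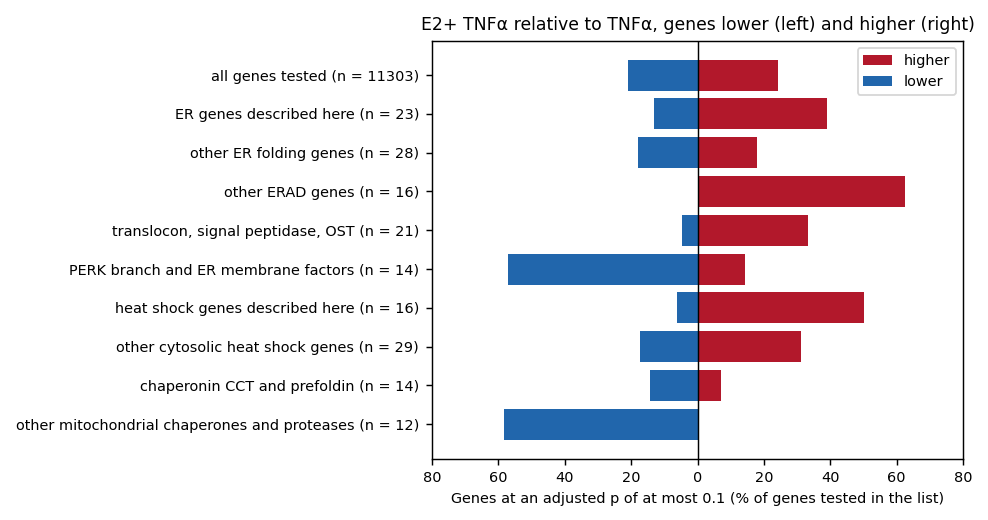
Share of the genes tested in each list (percent, horizontal axis) that were higher (right) or lower (left) in E2+ TNFα than in TNFα at an adjusted p of at most 0.1, beside all genes tested, with 24.4% higher and 21.0% lower. The other degradation genes have bars on the right only, and the PERK branch and the mitochondrial genes lie mostly on the left.

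Between E2+ TNFα and E2 the companion lists had 1 gene of CCT and prefoldin (PFDN6, −0.36 ± 0.11) and 3 of the translocon list (SSR2, −0.56 ± 0.12, SEC61B, −0.46 ± 0.13, and DAD1, −0.45 ± 0.11) lower, and 0 genes of any list higher, beside 2.65% higher and 3.34% lower of all genes. After trend removal, 3 other folding genes and 2 genes of the PERK list were higher, and 5 translocon, 4 other cytosolic heat shock and 2 CCT and prefoldin genes and 1 gene of each other list were lower, beside 4.61% and 10.7% of all genes. Relative to vehicle, HSPA6 had −5.03 ± 0.21 with TNFα, and −3.11 ± 0.19 and −3.16 ± 0.18 with E2 and E2+ TNFα. These were −5.71, −3.90 and −3.84 with the trends removed. HSPA4L, of the HSP110 class, had −3.51 ± 0.31 (E2), −3.78 ± 0.29 (TNFα) and −3.28 ± 0.28 (E2+ TNFα), and −1.77, −2.04 and −1.81 with the trends removed. CHORDC1, an HSP90 co-chaperone, had −2.85 ± 0.35 in E2 and −2.95 ± 0.34 in TNFα but 0.28 and 0.02 after removal. DDIT3 had −2.75 ± 0.19 in E2 and −2.83 ± 0.18 in E2+ TNFα, and TRIB3 had 2.13 ± 0.21 in TNFα, and after removal these were −2.97, −2.92 and 1.40. CCT8 (−2.84 ± 0.34, −2.84 ± 0.33 and −3.02 ± 0.34) and YME1L1, a mitochondrial protease (−2.53 ± 0.16, −2.37 ± 0.15 and −2.28 ± 0.15), were lower in all 3 treated groups, with −2.42, −2.34 and −2.62 for CCT8 and −1.25, −1.16 and −1.22 for YME1L1 with the trends removed.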

How the data were processed

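Total RNA from 12 samples was made into stranded mRNA libraries. Reads were mapped to hg38 with TopHat2 2.1.0 and assigned to genes with featureCounts, per the submitters' processing notes, and whether counting used strand is not given in the sources used here. The deposited values are uncorrected whole-number counts, so the RUVseq correction named in the methods of the study is not in them. Of 12567 entries, 46 repeated another in full and 70 shared locus and counts with another symbol, and these were left out. RPKM was derived here from counts and total exon length, and 11303 entries with at least 1 RPKM in at least 3 libraries were tested.

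After TMM normalization, edgeR 4.0.16 (R 4.3.3) fitted the 4 group means together and gave quasi-likelihood F tests, with Benjamini-Hochberg adjustment over all genes tested. Thresholds were those of the study (absolute log2 fold change of at least 1.5, p below 0.05, adjusted p of at most 0.1). In the 2 comparisons without vehicle, genes at an adjusted p of at most 0.1 were also counted at any size. The replicates are samples of 1 line, and p values measure the spread between these samples, which may be technical. The steps were tested on simulated data with known changes.

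The members and companion lists were chosen with earlier results of these data known, and no list was given a test of its own. In every library HSPA5, HSP90B1, DNAJB9, HERPUD1, XBP1, HSPA1A, HSPA1B, HSPA8, DNAJB1 and HSPH1 were given by rule, with statistics for members past the thresholds, in the comparisons without vehicle for the 4 of each side with the largest changes, and for at most 3 genes per companion list and comparison. The values of ERN1, HSPB1, DDIT3, TRIB3, HSPB8 and HSPA6 in each group were chosen after their values were seen. Trends were loess curves (span 0.3) of each library on exon GC content and gene length, entered as offsets. Copies were exon alignments by minimap2 2.31 of at least 200 bases at 90% identity or more (95% for spliced copies). Of the members, 13 have such a copy (HSP90B1, HSPA5, PDIA3, DNAJA1, HSP90AA1, HSP90AB1, HSPA1A, HSPA1B, HSPA8, HSPB1, HSPD1, HSPE1 and STIP1), and reads may have been split or lost there. PDIA6 and HSPE1 share 29.7% and 29.0% of their exon length with a gene on the other strand. HSPA1B shares 36.5% with a noncoding RNA on its own strand. DNAJB11 and HSPE1 share 26.7% and 20.15% with a protein-coding gene on their own strand. Other alternatives were DESeq2 1.42.0, other scalings and filters, 1 unwanted factor from 20 housekeeping genes computed as in RUVg, the replicate number as a block and each library left out. Library depth ranged from 7652016 to 39943664 reads in genes.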

Additional observations from a re-analysis of the deposited data

Results flagged for a closer look

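The effect of TNFα differed with and without E2 for 17 members by the test of the interaction itself (edgeR, thresholds of the study), beside 31.8% of all genes tested. The log2 values, positive where TNFα lowered the gene less or raised it more in the presence of E2, were 4.83 for HSPA1A, 4.55 for HSPA1B, 5.12 for DNAJB4, 3.59 for HSP90AA1, 3.59 for HSPH1, 2.43 for DNAJA1, 1.99 for HSPA4, 1.78 for HSPE1 and 1.73 for HSPD1 among heat shock genes. Among endoplasmic reticulum genes they were 4.26 for ERO1B, 3.70 for HSP90B1, 2.66 for DNAJB9, 2.54 for DNAJC3, 2.37 for SEL1L, 2.07 for HSPA5, 1.61 for PDIA3 and −1.55 for XBP1. All 17 rest on the vehicle libraries, and ERO1B and DNAJB4 were tested only because they were high in vehicle. With the trends of GC content and length removed together, HSPA1A had 5.64, HSPA1B 5.32, HSP90AA1 3.16 and HSP90B1 2.43, but SEL1L −0.31 and DNAJC3 0.42. With the unwanted factor the sign turned for HSP90AA1 (−0.90), HSPE1 (−0.49) and DNAJA1 (−0.0808).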

How the results depend on the processing

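Main values stand first in what follows. The count of members significantly regulated, ERO1B and DNAJB4 included, was 19 in E2 relative to vehicle, and 9 with GC and length trends removed (9 also with the replicate block added), 8 with the unwanted factor and 9 of the 26 members left once the 13 with a copy were taken out. In TNFα relative to vehicle it was 17, and 9 with trends removed (10 with the block) and 8 without copies. In E2+ TNFα relative to vehicle it was 14, and 7 with trends removed (7 with the block), 7 with the unwanted factor and 5 without copies. For the interaction it was 17, and 11 with the unwanted factor and 8 without copies. In E2+ TNFα relative to TNFα it was 3, and 2 to 5 with 1 library left out, 5 without TNFα replicate 2. In that last fit 661 of 11256 genes were called, against 628 of 11303 in the main fit. At any size, 9 of 16 heat shock members changed in that comparison, and 3 of the 6 without copies, beside 45.3% of all genes. In E2+ TNFα relative to E2, 1 endoplasmic reticulum member changed, and 0 with at least 10 counts in every library, 0 with the replicate block, 4 with trends removed (4 with the block), 5 with the unwanted factor, 2 by DESeq2, 0 with the 2 groups alone and 0 to 2 with 1 library left out. There 1 heat shock member changed, and 0 with the block, 4 with trends removed (3 with the block) and 4 with the unwanted factor. This count was 2 by DESeq2, 0 with the 2 groups alone and 0 to 3 with 1 library left out. Of all genes, 2.65% were higher and 3.34% lower there in the main fit, and 4.61% and 10.7% with trends removed. The shares under the other fits are not given, and nothing is read about the members from these counts.

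The endoplasmic reticulum median less the heat shock median, ERO1B and DNAJB4 included, was 0.50 in E2 relative to vehicle. This difference was 0.0899 with trends removed (0.0856 with the block), −0.88 with the unwanted factor and −0.0712 without copies. It was 0.40 to 0.88 with 1 library left out, 0.88 without E2 replicate 1. It was 0.74 in TNFα relative to vehicle, and 0.38 with trends removed (0.38 with the block), −0.37 with the unwanted factor and 0.36 without copies. It was 0.71 in E2+ TNFα relative to vehicle, and 0.22 with trends removed (0.21 with the block), −0.57 with the unwanted factor, 0.11 without copies and 0.39 to 1.00 with 1 library left out, 1.00 without E2+ TNFα replicate 2 and 0.39 without replicate 3. It was −0.66 in E2+ TNFα relative to TNFα, and −0.42 with the unwanted factor, −0.32 without copies and −0.81 to −0.20 with 1 library left out. It was 0.06 in E2+ TNFα relative to E2, and −0.0427 to 0.24 with 1 library left out.

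With the unwanted factor the sign turned for DNAJA1 (0.75), DNAJB9 (0.21), HSP90AA1 (1.38) and HSPE1 (0.56) in E2 and HSP90AA1 (0.45) in E2+ TNFα relative to vehicle, and for DNAJA1 (−0.0808), HSP90AA1 (−0.90) and HSPE1 (−0.49) in the interaction. With trends removed, and with the block added, it turned for DNAJC3 (0.12 and 0.13) and SEL1L (0.68 and 0.68) in E2, for SEL1L in TNFα (0.13 and 0.13) and in the interaction (−0.31 and −0.31). The cause was not tested. Among all genes called, the share that was higher moved from 32.4% to 54.5% with trends removed and 51.7% with the unwanted factor in E2 relative to vehicle, from 24.9% to 48.2% and 36.6% in TNFα, from 30.0% to 54.0% and 49.4% in E2+ TNFα and from 70.8% to 49.6% and 59.0% in the interaction. The genes called went from 3447 to 1581 and 1671, from 3016 to 1184 and 1174, from 2837 to 1232 and 1402 and from 3593 to 1565 and 1300, and, for E2+ TNFα relative to E2, from 46 to 30 with the 2 groups alone, 24 with the filter at 10 counts and 84 without E2 replicate 3. Under scaling by library size alone, the median of all genes was −0.38, −0.19 and −0.26 in the comparisons with vehicle. The share of calls that were higher was then 17.4%, 16.4% and 20.0%, and 83.9% in the interaction. Endoplasmic reticulum members that were lower in E2+ TNFα relative to vehicle went from 5 to 8. Those positive in the interaction went from 7 to 11. All 77 calls of named members were unchanged with DESeq2, with its size factors and without a filter. However, 2 endoplasmic reticulum members in place of 1 were significantly lower in E2+ TNFα than in TNFα with DESeq2 and with its size factors. Same-numbered libraries did not deviate together (5 of 18 pairs had r over 0.1, from −0.47 to 0.45). Of 12 libraries, 3 were closest to their own number, and pairs of unlike number had r from −0.53 to 0.63. A pairing could be hidden in that spread, so it was neither shown nor excluded, and the main fit left it out. The replicate block moved no other of these counts by over 1.5 times. Without 1 vehicle library ERO1B and DNAJB4 were not tested.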
